A study of Mus musculus with 10 samples.

Results

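The genes described here are 44 genes of the epithelial cell: adhesion molecules of the adherens junction, claudins and other tight junction proteins, desmosome proteins, simple-epithelium keratins, the epithelial splicing factors, epithelial transcription factors, membrane proteases with their inhibitors, and 2 genes of membrane sorting. They were taken by symbol from the platform's gene names, out of 19505 named genes. These names belong to 19572 of the 22206 probe sets (the array features that each report 1 transcript cluster). All 44 were found, and each had 1 probe set. The RNA came from cultured mouse Wolffian ducts, the embryonic tubes that form the epididymis and vas deferens. The ducts were taken at 16.5 days post-coitum and grown for 72 h at an air-liquid interface. There were 3 vehicle arrays (culture medium alone, per the labels' protocols), 4 arrays of ducts given SAG at 0.5 µM, an agonist of the hedgehog receptor component Smoothened, and 3 arrays of ducts given cyclopamine at 25 µM, a hedgehog inhibitor. The labels give no strain, sex or genotype, so none is stated for any group. They call the arrays biological replicates without saying how many ducts or embryos went into each.

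Epithelial cells are held to each other by adherens junctions built on E-cadherin, by desmosomes that anchor keratin filaments, and by tight junctions, whose claudins set what passes between cells. Grainyhead-like, Ovol and Ets-family transcription factors keep these genes active, and the Esrp proteins direct epithelial patterns of exon use in many transcripts. In the Wolffian duct this epithelium is a single tube inside mesenchyme that becomes smooth muscle. Hedgehog signals in many organs pass from an epithelium to the mesenchyme around it.

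Median log2 signals of the arrays ran from 7.55 to 7.70, and replicate arrays differed with an SD of 0.35 to 0.60. The sample titles call the tissue pronephros and the protocols call it Wolffian duct. Of the 6 duct markers measured, Pax2, Pax8 and Emx2 were between 8.0 and 14.61 on every array, and Lhx1, Ret and Wnt9b were lower, between 5.68 and 9.13. Of 9 kidney tubule markers, Slc34a1, Slc12a1 and Umod stayed between 4.15 and 5.36, near the arrays' lower quartiles of 5.06 to 5.29, and Lrp2, an uptake receptor that other epithelia also make, was between 8.58 and 11.66. The arrays vehicle 2 and SAG 2 stood apart for urothelial genes: Upk2, a plaque protein of bladder epithelium, was 9.55 and 8.77 there and between 4.75 and 5.69 on the other 8 arrays. Uroplakin-bearing cells are also epithelial, so the counts of the 44 genes past the test, and their median changes, were repeated without these 2 arrays. In whole ducts, fewer epithelial cells and less RNA per epithelial cell cannot be told apart.

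Promoter sequence was looked at because epithelial junction genes are textbook targets of Zeb and Snai repressors, which bind the E-box CAGGTG, which reads CACCTG on the other strand. In the RefSeq promoter table (assembly GRCm38.p6, 250 bases before to 50 after a transcript start, 300 in all), 28 of the 44 genes had a window. The E-box, searched on both strands, was in a window of 19 of these 28 genes (67.9%), and in 22.6% of all 27025 genes of the table and 22.1% of its 17492 protein-coding genes. The 37 windows of these genes had a median GC content of 60.0%, against 52.4% over all windows, and the part of base composition in the difference was not tested. The Grhl motif AACCGGTT and the Gli motif TGGGTGGTC, which reads GACCACCCA on the other strand, were in windows of 0 of the 28 genes, and in 0.2% and 0.3% of all genes. Exact matches this rare are unlikely in any 28 genes, so the 0 does not show that Grhl or Gli sites are absent. A choice of 6 genes with an E-box and 2 without one, made after their values were seen, is printed at the end of the paragraph with the 120 bases before the start, 5′ to 3′ on the gene's strand, the E-boxes in capitals and positions counted back from -1 at the base before the start. Ap1m2 (chr9:21312334-21312453, minus strand) has boxes that begin at -81, -51, -21 and -9, and Crb3 (chr17:57062081-57062200, plus strand) at -118, -63 and -7. Spint2 (chr7:29281978-29282097, minus strand) has them at -74, -55 and -9, and Rab25 (chr3:88548280-88548399, minus strand) at -64 and -53. Epcam (chr17:87635859-87635978, plus strand) has 1 at -19 and Cldn4 (chr5:134946935-134947054, minus strand) 1 at -14. Cldn1 (chr16:26371840-26371959, minus strand) and Tjp1 (chr7:65371245-65371364, minus strand) have none in this stretch. Genes without an E-box did not all respond alike: between the compounds Cldn1 rose and Tjp1 did not pass, while Spint1 fell 6.32-fold. F11r, with an E-box, changed by 0.09 on the log2 scale.
Ap1m2: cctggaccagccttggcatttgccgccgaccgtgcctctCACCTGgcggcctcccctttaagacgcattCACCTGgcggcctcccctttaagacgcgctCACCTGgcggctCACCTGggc
Crb3: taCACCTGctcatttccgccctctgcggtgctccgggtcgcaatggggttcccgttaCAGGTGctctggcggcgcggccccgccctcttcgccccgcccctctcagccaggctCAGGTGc
Spint2: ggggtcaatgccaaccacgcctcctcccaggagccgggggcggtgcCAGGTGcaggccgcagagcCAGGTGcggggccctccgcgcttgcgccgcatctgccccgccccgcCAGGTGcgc
Rab25: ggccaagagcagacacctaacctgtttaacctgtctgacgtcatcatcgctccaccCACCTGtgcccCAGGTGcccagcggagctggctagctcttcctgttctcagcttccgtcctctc
Epcam: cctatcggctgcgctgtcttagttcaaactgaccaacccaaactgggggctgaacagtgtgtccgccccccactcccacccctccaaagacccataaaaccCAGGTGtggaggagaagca
Cldn4: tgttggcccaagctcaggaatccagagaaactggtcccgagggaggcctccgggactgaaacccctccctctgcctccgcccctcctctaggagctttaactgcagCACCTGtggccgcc
Cldn1: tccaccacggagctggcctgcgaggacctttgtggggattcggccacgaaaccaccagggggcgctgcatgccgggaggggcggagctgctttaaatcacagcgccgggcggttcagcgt
Tjp1: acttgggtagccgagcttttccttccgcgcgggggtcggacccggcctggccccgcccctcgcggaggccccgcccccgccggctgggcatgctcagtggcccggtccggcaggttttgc

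Most of the 44 genes were highest with cyclopamine and lowest with SAG. In the direct comparison of the compounds 31 genes were lower with SAG, 1 gene, Cldn1, was higher, and 12 did not pass the test (limma, Benjamini-Hochberg adjusted p under 0.05 over all probe sets). Of all probe sets 5.92% passed as lower and 5.42% as higher in that comparison. These shares also stand beside the counts by role below. The median log2 change of the 44 genes was -1.86, against 0.01 over all probe sets. In 36 of the 44 every SAG array was below every cyclopamine array, which held for 10.5% of all probe sets, and in 1 every SAG array was above, which held for 10.7%. The largest falls were those of Cldn8 (13.5-fold), Cldn4 (12.7-fold), Cdh16 (11.7-fold), Cldn3 (log2 change -3.46), Ehf (10.4-fold), Ocln (9.87-fold) and Prss8 (8.09-fold). Of the 32 calls 31 held with any 1 array left out. The count was 30 without vehicle 2 and SAG 2, and then neither Cldn1 (adjusted p = 0.053) nor Cldn10 (adjusted p = 0.11) passed.

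Against vehicle, cyclopamine raised 11 of the 44 genes (Cdh16, Cldn3, Cldn4, Marveld2, Crb3, Esrp1, Grhl2, Ehf, Krt18, St14 and Prss8), where 2.17% of all probe sets rose. It lowered 0, where 2.95% of all probe sets fell; at an unadjusted p under 0.05, limma put 26 genes higher and 0 lower, and 8.96% and 9.9% of all probe sets. The median log2 change was 0.85 (all probe sets 0.02), and 42 of the 44 changes were above 0. Every cyclopamine array was above every vehicle array in 16 genes (11.2% of all probe sets) and below in 0 (11.9%). The 11 calls rest on single arrays: 20 genes passed without cyclopamine 2, 1 without vehicle 1 or without vehicle 3, 2 without cyclopamine 3, 3 without cyclopamine 1, 5 without SAG 3 and 7 without SAG 4. Cdh16 alone passed with any array left out, and without vehicle 2 and SAG 2 together 10 genes passed.

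Against vehicle, SAG lowered 2 genes, Cldn7 and Esrp1, where 0.279% of all probe sets fell. It raised 0, where 0.45% rose; at an unadjusted p under 0.05, limma put 30 genes lower and 1 higher, and 5.51% and 5.25% of all probe sets. The median log2 change was -0.93 (all probe sets 0.01), and 41 of the 44 changes were below 0. Every SAG array was below every vehicle array in 23 genes (6.63% of all probe sets) and above in 1, Cldn1 (6.25%). Without vehicle 1, 2 or 3, or without SAG 1, 3 or 4, 0 genes passed, 1 passed without cyclopamine 1 and 8 without cyclopamine 2. Without SAG 2 the count stayed at 2, but Cldn7 did not pass (adjusted p = 0.063) and Cdh1 did (adjusted p = 0.045, limma). Both calls ended without vehicle 2 and SAG 2 together. The 2 comparisons with vehicle share the same 3 vehicle arrays. Group means ran cyclopamine, vehicle, SAG from high to low in 40 of the 44 genes (90.9%) and in 20.7% of all probe sets. In 13 genes (29.5%, against 1.21% of all probe sets) neither step had overlapping arrays: Cdh1, Cdh16, Cldn3, Cldn4, Cldn7, Marveld2, Esrp1, Grhl2, Ehf, Dsg2, Spint1, St14 and Prss8.

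**Figure D1:**
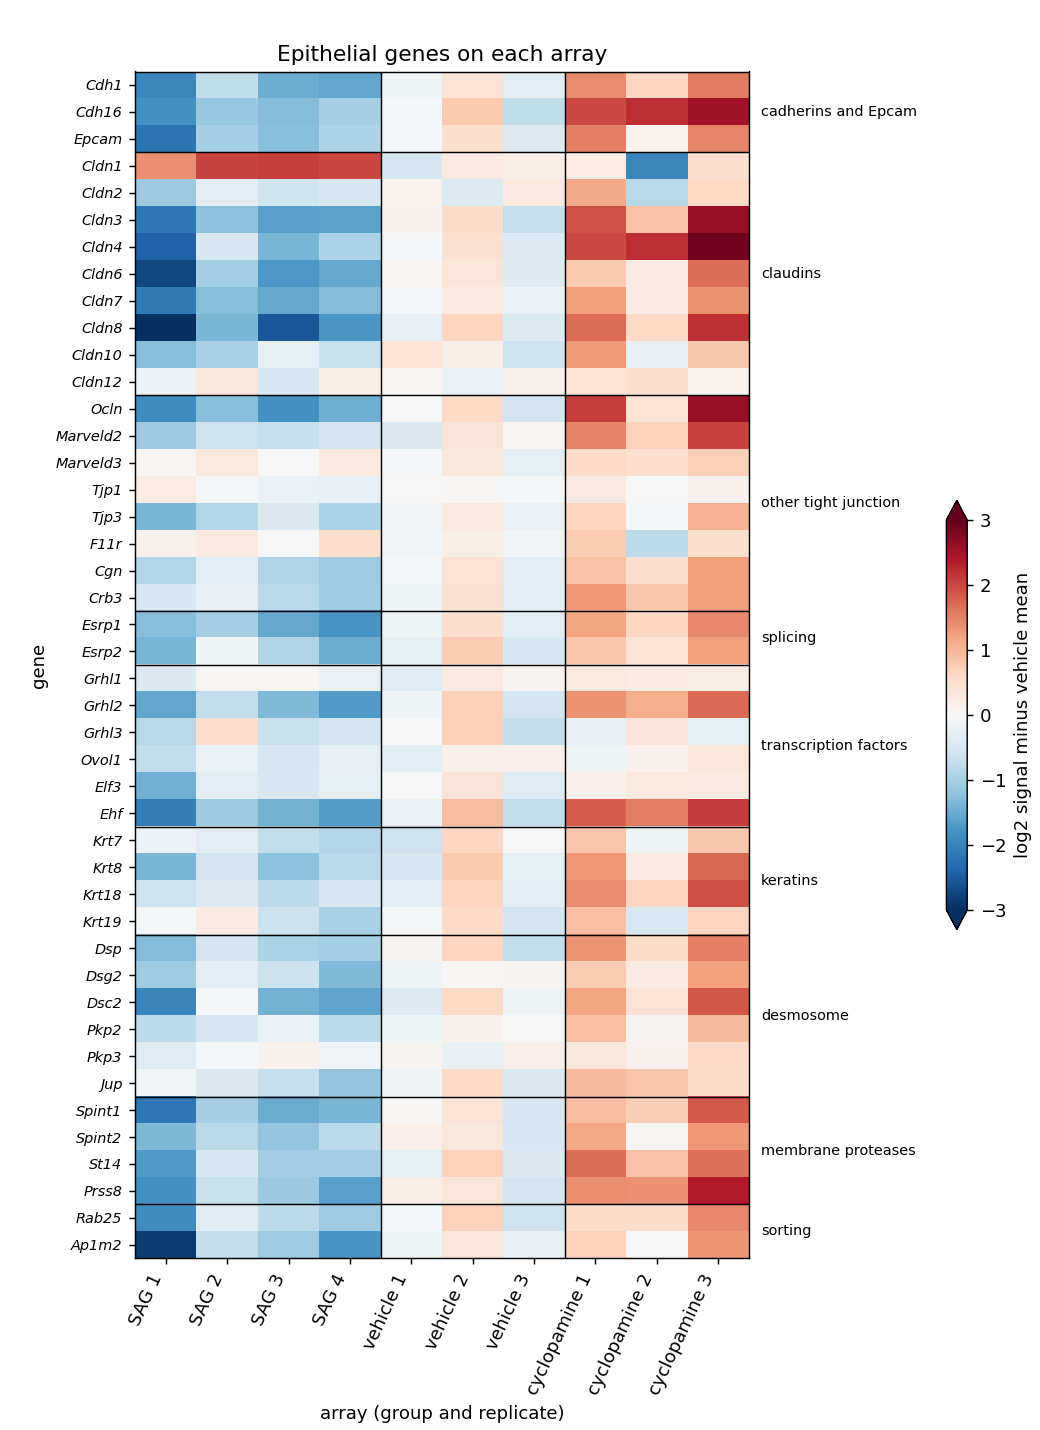
Log2 signal of each of the 44 genes (rows, grouped by role) on each of the 10 arrays (columns), as the difference from the gene's vehicle mean; red is higher, blue is lower, and colours end at -3 and 3. SAG arrays are blue for most genes and cyclopamine arrays red. Cldn1 is red on the SAG arrays and blue on cyclopamine 2 alone of the cyclopamine arrays, and Tjp1, Cldn12, Marveld3, Grhl1 and Pkp3 are pale throughout.

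The arrays of a group also differed from each other in a way shared by most of the genes. Vehicle 2 was the highest vehicle array in 38 of the 44, and vehicle 3 the lowest in 31. SAG 2 was the highest SAG array in 30 and SAG 1 the lowest in 29, and cyclopamine 2 was the lowest cyclopamine array in 35. The median difference from the vehicle mean was -0.08, 0.43 and -0.35 on vehicle arrays 1 to 3, -1.32, -0.49, -0.87 and -0.98 on SAG arrays 1 to 4, and 1.04, 0.40 and 1.31 on cyclopamine arrays 1 to 3. Vehicle 2 thus reached the level of cyclopamine 2, and the groups overlapped on this measure there. The 44 genes are not independent readings of a group, since they go up and down together on an array.

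Of the cell adhesion genes, E-cadherin (Cdh1), the core of the adherens junction, had log2 signals of 14.25, 14.79 and 14.05 in vehicle, 12.41, 13.61, 12.88 and 12.82 with SAG, and 15.79, 14.99 and 15.92 with cyclopamine. The 3 groups did not overlap. Between the compounds Cdh1 fell 6.22-fold (log2 change -2.64, SE 0.31, adjusted p = 0.00032, limma), while the changes against vehicle, -1.44 (SE 0.31) with SAG and 1.20 (SE 0.33) with cyclopamine, did not pass. Cdh16, a cadherin typical of kidney tubule and duct epithelium, was at 12.46, 13.29 and 11.74 in vehicle, 10.68, 11.37, 11.19 and 11.50 with SAG, and 14.47, 14.71 and 15.03 with cyclopamine. It rose 4.73-fold with cyclopamine against vehicle (log2 change 2.24, SE 0.35, adjusted p = 0.0056, limma), and here cyclopamine 2 was not the lowest of its group. Epcam, the epithelial cell adhesion molecule whose promoter carries 1 E-box, was at 12.92, 13.47 and 12.57 in vehicle, 10.78, 11.96, 11.71 and 12.05 with SAG, and 14.48, 13.08 and 14.45 with cyclopamine. The cyclopamine 2 value lay inside the vehicle range, and Epcam passed only between the compounds (log2 change -2.37, SE 0.40, adjusted p = 0.0030, limma).

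Claudins gave both the largest falls and the only rise with SAG against cyclopamine: 6 of 9 fell, Cldn1 rose, and Cldn2 and Cldn12 did not pass. Cldn4, a barrier claudin of tubular epithelia, was at 12.73, 13.24 and 12.38 in vehicle, 10.36, 12.32, 11.42 and 11.85 with SAG, and 14.77, 15.01 and 15.68 with cyclopamine. Every cyclopamine array lay well above the vehicle arrays, and the rise was 5.16-fold (log2 change 2.37, SE 0.44, adjusted p = 0.013, limma). Cldn3, the neighbour of Cldn4 on chromosome 5 with 0 protein-coding genes between them, was at 10.89, 11.32 and 10.06 in vehicle, 8.61, 9.52, 9.13 and 9.15 with SAG, and 12.67, 11.65 and 13.38 with cyclopamine. It rose 3.51-fold with cyclopamine against vehicle (adjusted p = 0.037, limma), a call that ended without vehicle 2 and SAG 2 (adjusted p = 0.063).

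Cldn8, which forms paracellular barriers in collecting ducts, had the widest span of the 44 genes: 12.35, 13.23 and 12.18 in vehicle, 9.16, 11.21, 10.04 and 10.85 with SAG, and 14.26, 13.19 and 14.78 with cyclopamine. The SAG arrays lay below all the others, and cyclopamine 2 overlapped the vehicle range. Neither change against vehicle passed (-2.27, SE 0.50, adjusted p = 0.082 with SAG; 1.49, SE 0.54, adjusted p = 0.16 with cyclopamine, limma). Cldn7, a claudin of many simple epithelia, had 9.51, 9.82 and 9.40 in vehicle, 7.45, 8.31, 8.05 and 8.28 with SAG, and 10.83, 9.82 and 10.92 with cyclopamine. It was 1 of the 2 genes that fell with SAG against vehicle (2.95-fold, log2 change -1.56, SE 0.29, adjusted p = 0.038, limma). Cldn6, found mainly in embryonic epithelia, and Cldn10, which forms ion pores, fell between the compounds, by 2.64 and 1.41 on the log2 scale (adjusted p = 0.0019 and 0.032, limma). The Cldn10 call ended without SAG 1, SAG 2, SAG 4, cyclopamine 1 or cyclopamine 3 (adjusted p up to 0.13).

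Cldn1, the claudin required for the skin barrier, ran the other way. Its signals were 10.38, 11.12 and 11.05 in vehicle, 12.22, 12.87, 12.92 and 12.85 with SAG, and 11.07, 8.89 and 11.33 with cyclopamine. All 4 SAG arrays were above the other 6, and vehicle and cyclopamine overlapped, with cyclopamine 2 far below the rest of its group. Cldn1 was 4.87-fold higher with SAG than with cyclopamine (log2 change 2.28, SE 0.49, adjusted p = 0.012, limma), and its change against vehicle, 1.86 (SE 0.49), did not pass (adjusted p = 0.15). With 1 array left out at a time, it passed against vehicle only without cyclopamine 2 (adjusted p = 0.0047), an array that enters that comparison through the shared estimate of spread. It also passed against vehicle with array weights (adjusted p = 0.032) and in a fit of the SAG and vehicle arrays alone (adjusted p = 0.0091, limma). The Cldn1 call between the compounds, in turn, was lost with a replicate block in the fit and without vehicle 2 and SAG 2 together. Cldn2, a pore for cations and water, had changes of -0.62 (SE 0.39) with SAG and 0.29 (SE 0.42) with cyclopamine against vehicle, and Cldn12, which lacks the usual scaffold-binding tail, -0.04 (SE 0.20) and 0.34 (SE 0.21).

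**Figure D2:**
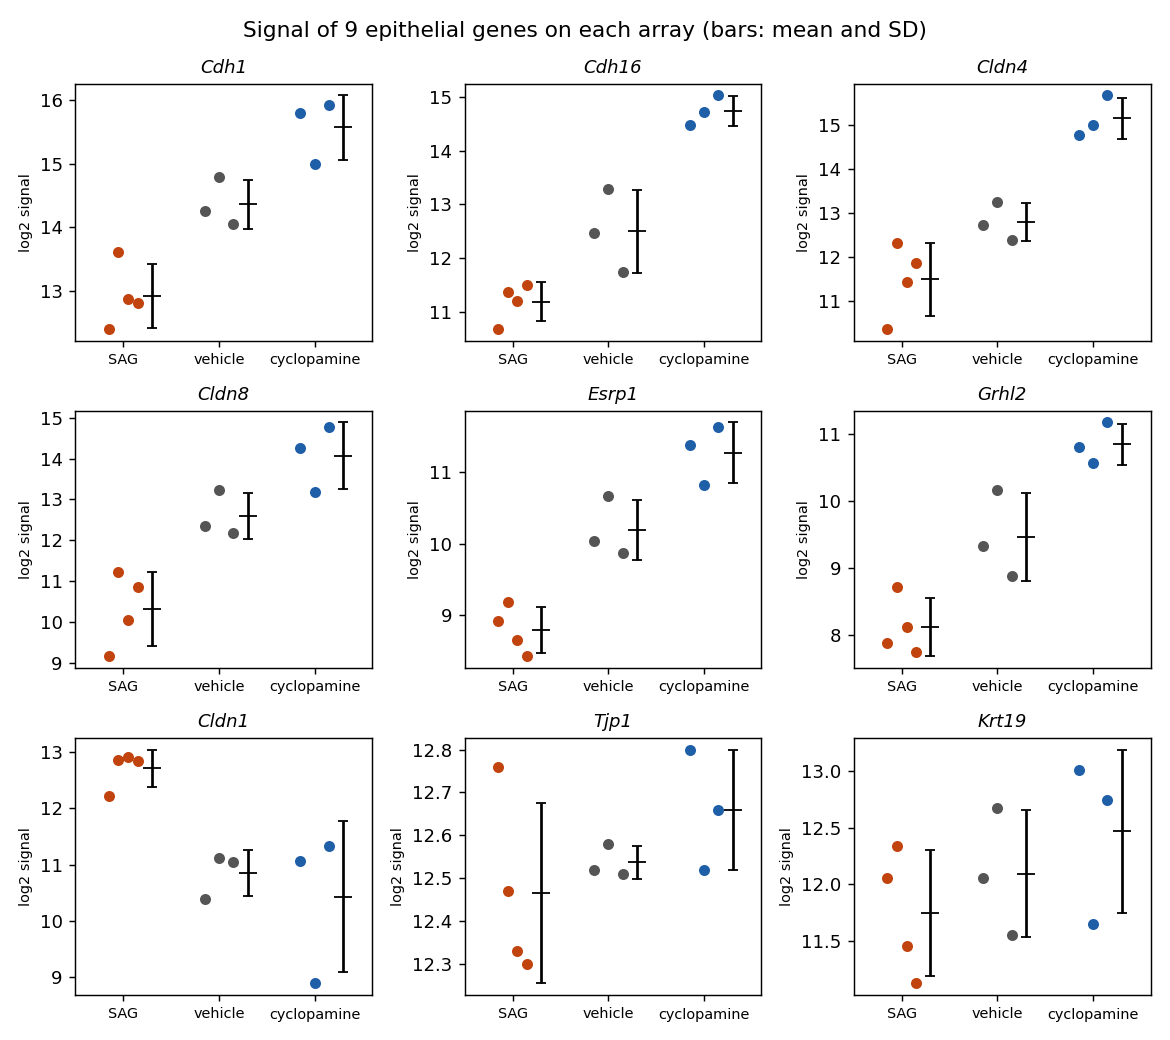
Log2 signal of 9 genes on each array (points) by group, with the mean and SD of the group (bars); each panel has its own vertical scale, which does not start at 0. Cdh1, Cdh16, Cldn4, Esrp1 and Grhl2 separate into 3 groups, Cldn8 separates SAG from the others, Cldn1 is high with SAG alone, and in Tjp1 and Krt19 the groups overlap.

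Among the other tight junction genes 5 of 8 fell with SAG against cyclopamine. Occludin (Ocln), the founding transmembrane protein of the tight junction, was at 9.90, 10.51 and 9.33 in vehicle, 8.04, 8.64, 8.09 and 8.45 with SAG, and 11.99, 10.31 and 12.53 with cyclopamine. SAG arrays lay below all others, and cyclopamine 2 again fell inside the vehicle range. Ocln fell by 3.30 between the compounds (SE 0.46, adjusted p = 0.00091, limma), and its change of 1.70 with cyclopamine against vehicle did not pass (SE 0.49, adjusted p = 0.077). Its neighbour on chromosome 13, Marveld2 (tricellulin, which seals the points where cells meet in threes), was at 8.0, 8.83 and 8.50 in vehicle, 7.35, 7.81, 7.74 and 7.89 with SAG, and 9.93, 9.14 and 10.50 with cyclopamine. It rose 2.66-fold with cyclopamine against vehicle (adjusted p = 0.032, limma), and did not pass without vehicle 2 and SAG 2 (adjusted p = 0.072).

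Crb3, which with its partners marks the apical side of the cell and carries the 3 E-boxes shown above, was at 8.68, 9.27 and 8.48 in vehicle, 8.34, 8.56, 7.98 and 7.74 with SAG, and 10.10, 9.65 and 10.07 with cyclopamine. Only cyclopamine stood clear of the other groups, and the rise against vehicle was 2.19-fold (adjusted p = 0.032, limma). Cingulin (Cgn) and Tjp3, cytoplasmic plaque proteins, fell between the compounds by 1.67 and 1.46 on the log2 scale (SE 0.24 and 0.27, adjusted p = 0.0013 and 0.0056, limma). Tjp1, the zonula occludens scaffold that non-epithelial cells also make, had nearly one level: 12.52, 12.58 and 12.51 in vehicle, 12.76, 12.47, 12.33 and 12.30 with SAG, and 12.80, 12.52 and 12.66 with cyclopamine. Its change between the compounds was -0.20 (SE 0.14, adjusted p = 0.46). F11r, a junctional adhesion molecule also found on endothelium and blood cells, had a change of 0.09 (SE 0.31), and Marveld3 one of -0.44 (SE 0.16, adjusted p = 0.12). The part of other cells in the signals of the tight junction genes was not tested.

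Both epithelial splicing factors fell with SAG against cyclopamine. Esrp1 was at 10.03, 10.67 and 9.87 in vehicle, 8.92, 9.18, 8.65 and 8.43 with SAG, and 11.37, 10.81 and 11.63 with cyclopamine. Its 3 groups did not overlap, and it was the 1 gene of the 44 that passed in all 3 comparisons: it fell 2.63-fold with SAG (log2 change -1.40, SE 0.26, adjusted p = 0.038), rose 2.12-fold with cyclopamine (1.08, SE 0.27, adjusted p = 0.049) and was 5.56-fold lower with SAG than with cyclopamine (-2.48, SE 0.26, adjusted p = 0.00017, limma). Both changes against vehicle lie just inside the threshold. Esrp2 was at 9.90, 10.93 and 9.69 in vehicle, 8.81, 10.05, 9.28 and 8.70 with SAG, and 11.02, 10.59 and 11.42 with cyclopamine. Its high vehicle 2 and SAG 2 values make neighbouring groups overlap, and it passed only between the compounds (log2 change -1.80, SE 0.37, adjusted p = 0.0098, limma). One signal per gene says nothing about which exons of any target transcript were used.

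The transcription factors split. Grhl2, the grainyhead-like factor that supports Cdh1 and claudin expression, was at 9.33, 10.17 and 8.88 in vehicle, 7.89, 8.72, 8.13 and 7.75 with SAG, and 10.81, 10.56 and 11.17 with cyclopamine. Ehf, an epithelial Ets factor, was at 11.32, 12.42 and 10.74 in vehicle, 9.41, 10.40, 10.08 and 9.82 with SAG, and 13.31, 13.02 and 13.58 with cyclopamine. Both genes had 3 separate groups, and both rose with cyclopamine against vehicle, Grhl2 by 1.38 (SE 0.33, adjusted p = 0.040) and Ehf by 1.81 (SE 0.38, adjusted p = 0.023, limma) on the log2 scale. The related Grhl1 and Grhl3, which act mainly in epidermis, did not pass in any comparison: between the compounds their changes were -0.39 (SE 0.17, adjusted p = 0.20) and -0.35 (SE 0.37, adjusted p = 0.65, limma). Elf3, a second epithelial Ets factor, had a change of -0.89 (SE 0.27, adjusted p = 0.065). Ovol1, a zinc-finger repressor of mesenchymal genes, had a change of -0.54 (SE 0.19, adjusted p = 0.10). Its mean signal was under the lower quartile of 5.19, where an array may compress differences, which was not measured here.

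Krt8 and Krt18, the filament partners of simple epithelia and neighbours on chromosome 15, both fell between the compounds, whereas Krt7 and Krt19 did not pass. Krt18 was at 12.59, 13.55 and 12.57 in vehicle, 12.29, 12.48, 12.11 and 12.43 with SAG, and 14.32, 13.53 and 14.83 with cyclopamine. SAG arrays were the lowest, and vehicle 2 and cyclopamine 2 were alike. Krt18 rose 2.51-fold with cyclopamine against vehicle (adjusted p = 0.046, limma) and was 3.74-fold lower with SAG than with cyclopamine (adjusted p = 0.0026). For Krt8 the signals were 11.39, 12.67 and 11.59 in vehicle, 10.50, 11.30, 10.66 and 11.06 with SAG, and 13.19, 12.12 and 13.61 with cyclopamine, and the fall between the compounds was 4.27-fold (adjusted p = 0.0052, limma). Its partner's rise with cyclopamine did not extend to a call for Krt8 (log2 change 1.09, SE 0.41, adjusted p = 0.17). Krt19, a keratin of ducts that mesothelium also makes, was at 12.06, 12.67 and 11.55 in vehicle, 12.06, 12.34, 11.46 and 11.13 with SAG, and 13.01, 11.65 and 12.74 with cyclopamine. The 3 groups overlapped (log2 change between the compounds -0.72, SE 0.39, adjusted p = 0.30, limma). Krt7, also made by mesothelium, had a change of -1.04 that did not pass (SE 0.32, adjusted p = 0.063). The part of mesothelium in the signal of any of these keratins, Krt8 and Krt18 included, was not tested.

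Of the 6 desmosome genes 5 fell with SAG against cyclopamine and Pkp3 did not pass; against vehicle the 6 passed with neither compound, with adjusted p from 0.10 to 0.33 for cyclopamine and from 0.22 to 0.87 for SAG. At an unadjusted p under 0.05, 5 were higher with cyclopamine (8.96% of all probe sets) and 4 lower with SAG (5.51%). Desmoplakin (Dsp), which ties the plaque to keratin, was at 10.31, 10.87 and 9.47 in vehicle, 8.92, 9.68, 9.27 and 9.19 with SAG, and 11.55, 10.76 and 11.72 with cyclopamine. SAG and cyclopamine arrays did not overlap, and the fall was 4.23-fold (adjusted p = 0.0022, limma). Dsg2, a desmosomal cadherin, was at 9.10, 9.27 and 9.32 in vehicle, 8.17, 8.90, 8.58 and 7.91 with SAG, and from 9.53 to 10.44 with cyclopamine, 3 separate groups. The other cadherin, Dsc2, fell 5.35-fold between the compounds, the plaque protein Pkp2 2.33-fold, and plakoglobin (Jup), which adherens junctions also contain, 2.6-fold (adjusted p = 0.0058, 0.0052 and 0.0091, limma). Dsc2 was also a gene in which SAG 2 stood high, at 7.38 against 5.48, 6.04 and 5.87 on SAG 1, 3 and 4. The plaque protein Pkp3 had a change of -0.45 between the compounds (SE 0.17, adjusted p = 0.12).

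The 4 genes of the membrane protease system, 2 proteases and their 2 Kunitz-type inhibitors, all fell with SAG against cyclopamine. Prostasin (Prss8), a membrane-anchored protease, was at 10.24, 10.40 and 9.47 in vehicle, 8.21, 9.37, 8.92 and 8.40 with SAG, and 11.42, 11.39 and 12.40 with cyclopamine. Matriptase (St14), which works in a cascade with prostasin, was at 9.14, 10.11 and 8.98 in vehicle, 7.70, 8.89, 8.37 and 8.37 with SAG, and 11.09, 10.30 and 11.07 with cyclopamine. Both proteases had 3 separate groups and rose with cyclopamine against vehicle, 3.26-fold (adjusted p = 0.026) and 2.65-fold (adjusted p = 0.049, limma). The inhibitor Spint1 was at 12.17, 12.55 and 11.66 in vehicle, 9.98, 11.14, 10.64 and 10.77 with SAG, and 13.06, 12.87 and 13.96 with cyclopamine. It too had separate groups, and its fall between the compounds was 6.32-fold (adjusted p = 0.00045, limma), with changes against vehicle that did not pass (-1.49 with SAG, adjusted p = 0.080; 1.17 with cyclopamine, adjusted p = 0.089). Spint2, whose 3 E-boxes are shown above, fell 3.67-fold between the compounds (adjusted p = 0.0026, limma).

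The sorting genes are Rab25, a small GTPase of epithelial recycling endosomes, and Ap1m2, the epithelial subunit of an adaptor complex that sends proteins to the basolateral membrane. Ap1m2, with 4 E-boxes in the stretch shown, was at 8.85, 9.35 and 8.73 in vehicle, 6.13, 8.26, 7.91 and 7.22 with SAG, and 9.66, 9.0 and 10.31 with cyclopamine. SAG 1 was the lowest of the 10 arrays, and vehicle and cyclopamine overlapped. Rab25 was at 11.33, 12.09 and 10.77 in vehicle, 9.54, 11.03, 10.61 and 10.34 with SAG, and 11.94, 11.94 and 12.83 with cyclopamine. Ap1m2 fell by 2.28 (SE 0.46, adjusted p = 0.0088) and Rab25 by 1.85 (SE 0.39, adjusted p = 0.011, limma) on the log2 scale between the compounds.

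**Figure D3:**
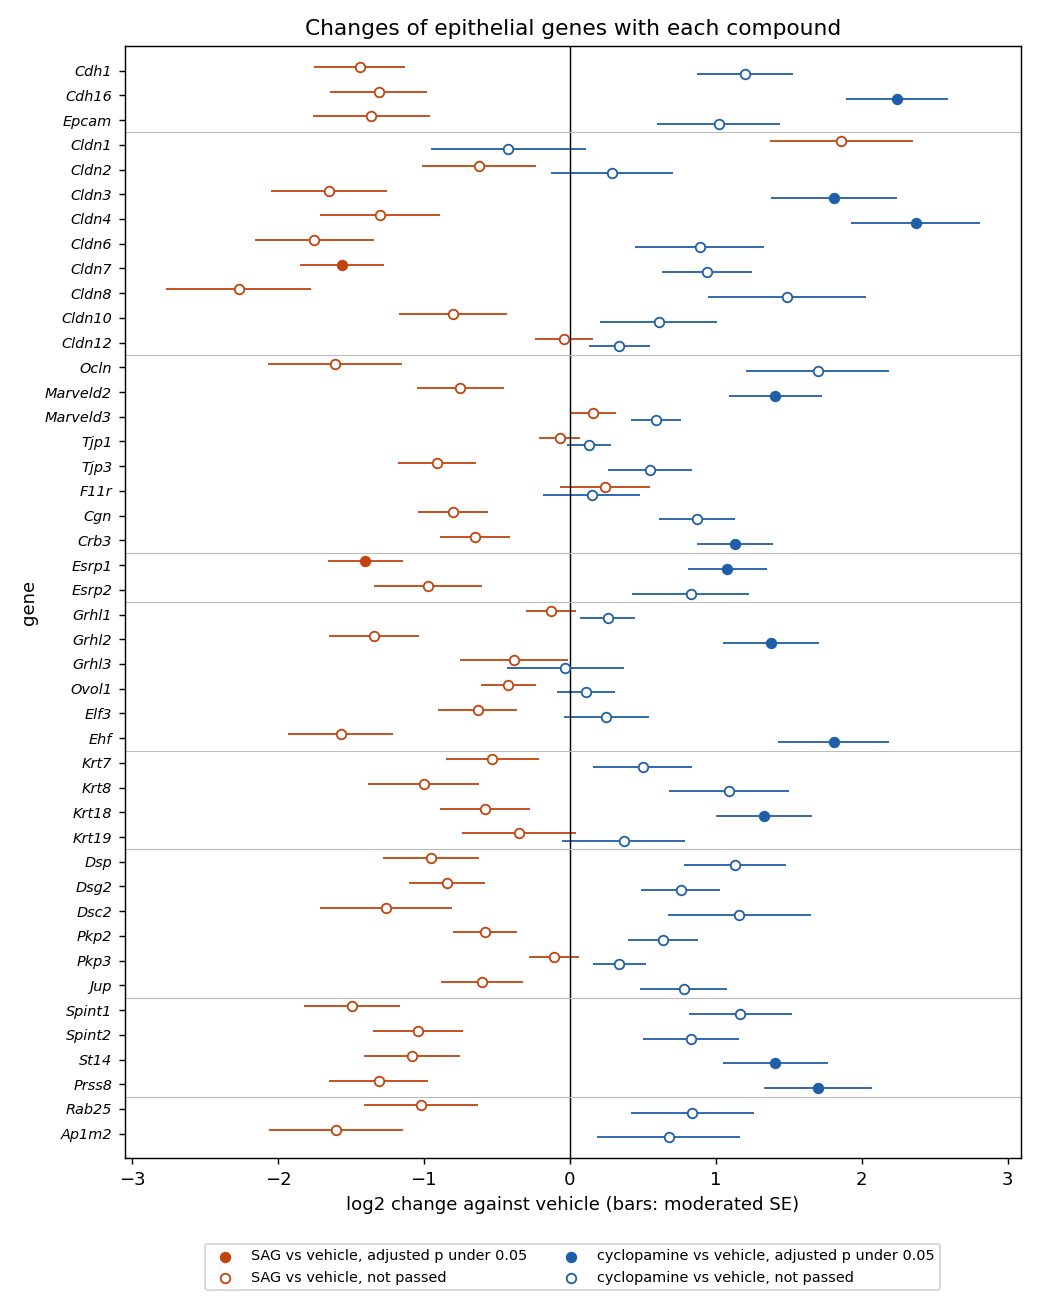
Log2 change of each gene against vehicle with SAG (orange) and with cyclopamine (blue), with the moderated SE; filled points passed the test. The orange points lie left of 0 for 41 of the 44 genes and the blue ones right of 0 for 42, while 2 orange and 11 blue points are filled.

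Set beside the promoter windows, 15 of the 19 genes with an E-box fell with SAG against cyclopamine, with a median log2 change of -2.08. Of all probe sets 5.92% fell and 5.42% rose in that comparison. Of the 9 with a window and no E-box (Cgn, Cldn1, Cldn2, Cldn10, Cldn12, Grhl1, Jup, Spint1 and Tjp1), 4 fell and 1 rose, with a median of -0.92. The 16 genes for which no window was used here, Cdh1, Esrp1 and Grhl2 among them, had a median of -2.45, and 12 of them fell. Large falls were found in all 3 sets, and Spint1 fell 6.32-fold without one in its windows.

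Other genes of the same structures, from lists of 77 genes of which 72 were measured under a name, had smaller median changes than the 44 when pooled. With SAG against cyclopamine 28 of the 72 fell (5.92% of all probe sets) and 1, Krt20, rose (5.42%). The median change was -0.36. With cyclopamine against vehicle 13 rose (2.17%) and 2 fell (2.95%), with a median of 0.35. With SAG against vehicle 0 passed (median -0.20), where 0.279% of all probe sets fell and 0.45% rose. At an unadjusted p under 0.05, limma put 18 lower and 2 higher, beside 5.51% and 5.25% of all probe sets. The same shares stand beside the counts of single lists and markers below. The list of other epithelial membrane and sorting genes had larger medians than the 44 genes in both comparisons with cyclopamine: 12 of its 16 fell with SAG against cyclopamine (median -2.03), and 6 rose with cyclopamine against vehicle (median 1.23). Prom1, an apical membrane protein, Erbb3, a growth factor receptor, Lad1 and Bspry fell, with log2 changes of -2.28, -2.72, -2.10 and -2.03 and an adjusted p of 0.000086, 0.00028, 0.00024 and 0.00015 (limma), and all 4 also rose with cyclopamine against vehicle.

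Of 21 other tight junction and polarity genes 9 fell between the compounds, with the largest change in the claudin Cldn15 (-2.81, SE 0.61), which also rose 7.07-fold with cyclopamine against vehicle (adjusted p = 0.034, limma). The smallest p-values were those of the polarity gene Pard6b (-1.74, SE 0.20) and the tricellular receptor Lsr (-1.60, SE 0.22), followed by the scaffold genes Magi3 (-0.82, SE 0.15) and Patj (-1.46, SE 0.29). Of 11 other adherens junction genes 4 fell: Plekha7 (-1.0, SE 0.21), alpha-catenin (Ctnna1, -0.51, SE 0.12), Nectin4 (-0.61, SE 0.14) and P-cadherin (Cdh3, -1.49, SE 0.35). The 17 other desmosome and keratin genes gave calls in both directions: periplakin (Ppl) fell by 2.24 (SE 0.21), Krt20 was 3.81-fold higher with SAG (adjusted p = 0.0092, limma), and the stratified-epithelium desmosome genes Dsc3 and Pkp1 fell with cyclopamine against vehicle by 1.16 and 0.67 (adjusted p = 0.040 and 0.047). Of 7 other epithelial transcription factors Tfcp2l1 and Elf5 fell between the compounds (-1.69, SE 0.19, and -2.34, SE 0.46), and Klf5 had a change of 1.02 (SE 0.30) with SAG against vehicle that did not pass (adjusted p = 0.20). Among 12 genes for repressors of the epithelial state and their mesenchymal counterparts 6 rose with SAG against cyclopamine, among them Twist2 (6.26-fold), fibronectin (Fn1, 2.03-fold) and vimentin (Vim, 1.83-fold). Twist2 and Fn1 fell with cyclopamine against vehicle, by 2.43 and 0.64. No Zeb or Snai gene passed against vehicle with either compound. Between the compounds no Zeb or Snai gene was among the 4 smallest p of the list, and their values are not given here.

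Markers of other tissues moved with the treatments too. With SAG against cyclopamine 4 of 6 mesenchyme markers and 5 of 6 smooth muscle markers rose. Col1a1 rose by 1.11, Cnn1 by 4.43 and Acta2 by 2.27 on the log2 scale. Against vehicle, cyclopamine lowered 2 of the 6 mesenchyme and 5 of the 6 smooth muscle markers (median log2 changes -0.5 and -3.27). With SAG against vehicle 0 of either list passed, and the smooth muscle median was -0.68. Of 6 duct epithelium markers 4 fell with SAG against cyclopamine, and 1 change was above 0 (0.47). The log2 changes were -5.21 for Pax2 (SE 0.42, adjusted p = 0.000041, limma) and -2.39 for Pax8 (SE 0.22). With cyclopamine against vehicle 3 duct markers rose, and 2 changes were below 0, the lowest -1.55. Every cyclopamine array was above every vehicle array in 3 of the 6 (11.2% of all probe sets) and below in 1 (11.9%). The duct markers thus did not all move with Pax2 and Pax8. Pax2 was at 9.79, 10.68 and 9.53 in vehicle, 8.26, 8.50, 8.30 and 8.0 with SAG, and 12.49, 14.61 and 13.33 with cyclopamine, so it was highest on cyclopamine 2, the array on which 35 of the 44 epithelial genes were lowest in their group. Of 6 endothelium markers Cdh5, Kdr and Emcn rose with SAG against cyclopamine, and Kdr also fell with cyclopamine against vehicle (log2 change -1.44, SE 0.31, adjusted p = 0.027, limma). Cdh5 was 11.99, 6.40 and 10.29 on the 3 cyclopamine arrays and between 11.04 and 13.80 on the other 7. The kidney tubule genes Lrp2 and Cubn rose with cyclopamine against vehicle (1.51, SE 0.38, and 0.96, SE 0.13) and fell with SAG against cyclopamine (-1.82, SE 0.35, and -0.53, SE 0.13). No urothelium, Mullerian duct and gonad, macrophage or neuron and glia marker passed in any comparison (limma), and at an unadjusted p under 0.05 at most 1 of each list did. Mesothelium, an epithelium-like covering that shares several of the keratins and junction genes, was also uneven: Upk3b was at 12.73, 13.19 and 12.99 in vehicle, 13.86, 12.32, 11.71 and 12.14 with SAG, and 14.93, 12.16 and 14.82 with cyclopamine. Lrrn4 was 12.31, 8.89 and 11.24 on the 3 cyclopamine arrays and between 7.10 and 8.29 on the other 7. Of the 6 mesothelium markers Lrrn4 alone passed, higher with cyclopamine against vehicle and lower with SAG against cyclopamine (adjusted p = 0.043 and 0.0091, limma), and the part of these tissues in the changes of the 44 genes was not tested.

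**Figure D4:**
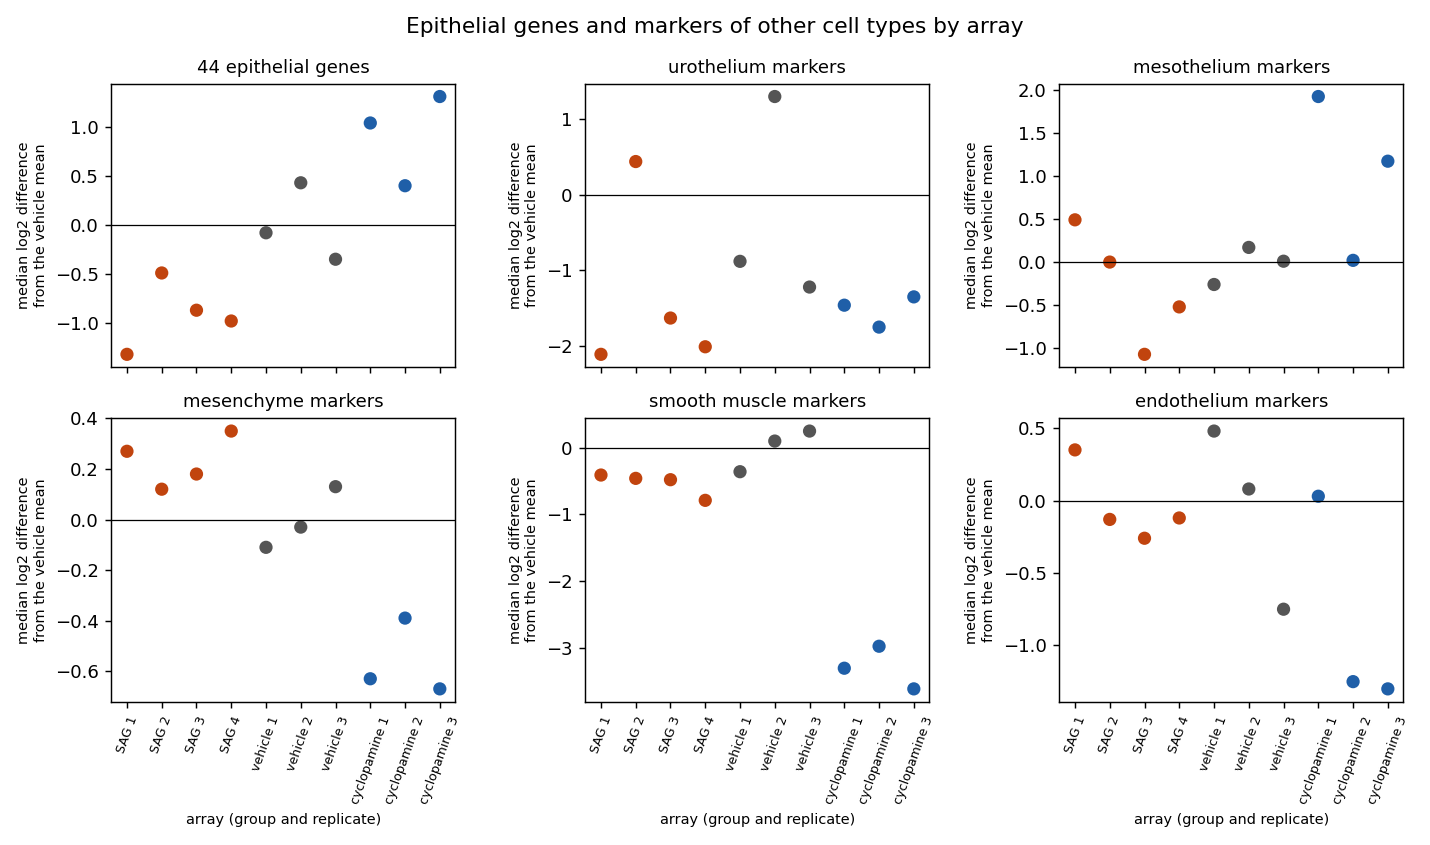
Median log2 difference from the vehicle mean on each array (points) for the 44 epithelial genes and for 5 lists of markers of other tissues; each panel has its own vertical scale. The epithelial genes step up from SAG to vehicle to cyclopamine, except that vehicle 2 (0.43) reaches the level of cyclopamine 2 (0.40). The urothelium markers are high on vehicle 2 and SAG 2, and the mesothelium markers on cyclopamine 1 and 3. The mesenchyme and smooth muscle markers are lowest with cyclopamine.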

How the data were processed

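The authors deposited 1 table of log2 signals of 22206 probe sets on 10 Affymetrix arrays. The log base is inferred from the range of values (2.95 to 18.70), and the sources used here do not give the summarization, normalization or build. Per the labels' protocols, RNA of integrity number 7 or more was labelled with biotin. Gene names came from the platform annotation.

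All 10 arrays entered 1 limma 3.58.1 fit in R 4.3.3 (group means by lmFit, eBayes, 7 residual degrees of freedom). Tests were two-sided and unfiltered, and p-values were adjusted by Benjamini-Hochberg across the 22206 probe sets (threshold 0.05). Errors are moderated standard errors, and the p-values measure the spread between these arrays. The fit was tested on simulated data, with shifts added to the SAG arrays and noise drawn independently for each probe set. Such noise lacks the shared movement of the 44 genes on an array. The 44 genes and all lists were chosen with earlier results of these data known, so no list was tested. All 44 genes are described; of the others, candidates were the 4 smallest p of each list, or 2 of each marker list, in each comparison. Which of them the text names, and Upk2, Upk3b, Emx2, Slc34a1, Slc12a1, Umod, Ret, Wnt9b and Emcn outside that rule, was chosen after their values were seen. Protein sequences were not used here.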

Additional observations from a re-analysis of the deposited data

Results flagged for a closer look

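Cldn1 on SAG 1 was the 1 case, over the 44 genes in the SAG group of 4 arrays, in which an array lay apart from the others. Its log2 signal was 12.22, while SAG 2, 3 and 4 had 12.87, 12.92 and 12.85, and the gap was 0.90 of the group's range, past Dixon's critical value for a group of 4. Chance alone marks about 1 in 20 such groups, and 5.71% of all probe sets were past the same value. SAG 1 was still above all 3 vehicle arrays, which reached 11.12. The groups of 3 arrays were too small for this check.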

How the results depend on the processing

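The median changes of the 44 genes moved by less than the spread between arrays of a group (SD 0.40) under every alternative run, with ranges of -1.13 to -0.68 for SAG against vehicle, 0.65 to 1.14 for cyclopamine against vehicle and -2.13 to -1.62 for SAG against cyclopamine, and 0 calls reversed. The count for SAG against cyclopamine, 32, stayed between 30 and 35. For SAG against vehicle the count of 2 became 7 with only the groups compared in the fit, 6 with array weights, 8 at an adjusted p of 0.10, 0 with a replicate block, 0 to 8 with 1 array left out, and 0 without vehicle 2 and SAG 2 together, an alternative added after the data were seen. For cyclopamine against vehicle the count of 11 became 2 with only the groups compared, 2 with a replicate block and 1 to 20 with 1 array left out. Arrays with the same replicate number did not deviate together (correlations of -0.19 to 0.24, against -0.22 to 0.23 for other numbers), vehicle 2 and SAG 2 being the highest of the same-numbered pairs. The cause of these moves was not tested. Normalizing again, centring, leaving out dim probe sets and an intensity-dependent prior kept each count within 1.5 times. Averaging a gene's probe sets could change nothing, since each of the 44 genes had 1. Small numbers of arrays limit the precision, and signals near the lower quartile, as for Ovol1, may understate changes.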
